A study of Zea mays with 40 samples.

Results

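The genes described here are 7 maize genes of seed oil regulation, synthesis, and storage. They were chosen by name from the deposited table of the series, which has 65196 rows. They are the embryo regulator lec1 (GRMZM2G011789), the WRI1 genes GRMZM2G124524 (EREB85 in RefSeq) and GRMZM2G174834 (EREB20), the acyltransferase gene DGAT1-2 (GRMZM2G169089), and the oleosin genes GRMZM2G337229 (ole1), GRMZM2G480954 (ole17), and GRMZM2G096435. All 7 were found. GRMZM2G337229 stands in the table under the symbol OLE16, which RefSeq gives as another name of ole1. RefSeq gives no name for GRMZM2G096435, and it is called an oleosin as the choice of genes states.

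RNA was sequenced from kernels of the inbred lines T191, T147, T209, and T210, taken every 10 days, from 10 to 50 days after pollination (DAP). Kernels came from the middle of the ear, and the methods of the study describe 2 similar ears as the biological repeats, so that n = 2 in all 20 combinations of line and DAP, with 40 libraries in total. The lines received no treatment and differ by genotype alone. T191 and T147 carry the numbers of a pair of extreme inbred lines of the study, which differ in their grain filling. T209 and T210 are then the parents of its recombinant population, but neither label names its parent. T191 was set against T147 and T209 against T210, and each DAP against the one before it.

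In seeds, LEC1 is a subunit of a CCAAT-binding factor that acts early in embryo development. WRI1 is an AP2-domain factor that turns on genes of glycolysis and fatty acid synthesis, and in Arabidopsis it acts downstream of LEC1. DGAT1 joins the last acyl chain to diacylglycerol to give triacylglycerol, and oleosins are the small proteins that coat the oil bodies in which this oil is stored. In the maize kernel most oil lies in the scutellum of the embryo and in the aleurone, while the starchy endosperm holds little.

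Values are fragments per kilobase of gene scaled to library size (FPKM), so levels may be compared between genes. The library totals ranged from 544588 to 683241 FPKM, which are not depths, and the relative depth read from the steps of low values ranged from 0.612 to 2.30 times the median library. The number of reads is not known. Repeat ears of a group had Spearman correlations of 0.843 to 0.967 across genes. At 20 DAP the ears of T191 and T210 were far apart. The summed level of 5 embryo marker genes was 3681 FPKM in ear 2 of T191 and 10975 FPKM in ear 1. In T210 it was 26533 FPKM in ear 2 and 9197 FPKM in ear 1. Other ears were as far apart, with embryo sums of 14362 and 49939 FPKM in T191 at 30 DAP. The lowest correlation, 0.843, was that of T210 at 50 DAP, and T191 at 30 DAP had 0.854. The value without one of the 4 libraries of T191 and T210 at 20 DAP is given beside a result in some cases. These are where leaving it out changed a call of a gene, or moved a called value by more than 1.5 times. A group left with 1 ear adds nothing to the spread shared by all 20 groups. A call can therefore change although the compared value does not.

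The label calls every sample a kernel, and the marker genes did not show the same tissues at every DAP. The summed level of 8 starchy endosperm markers had a median of 8976 FPKM at 10 DAP, 12654 FPKM at 20 DAP, 3527 FPKM at 30 DAP, 28.1 FPKM at 40 DAP, and 19.7 FPKM at 50 DAP (n = 8 libraries at each DAP). Among the 30 DAP libraries the sum was 142 and 1138 FPKM in T191, 10541 and 22630 FPKM in T147, 1233 and 1984 FPKM in T209, and 5071 and 8644 FPKM in T210. The zein genes fl2 and zp27 averaged 2883 and 1454 FPKM at 10 DAP but 10.1 and 19.5 FPKM at 40 DAP. Transcripts of these starchy endosperm markers were thus low in the late libraries, and no aleurone marker was read. Of the 8 starchy endosperm markers, 8 fell between 30 and 40 DAP, where 18.6% of all genes tested fell. The embryo marker sum had a median of 90.6 FPKM at 10 DAP, 11786 FPKM at 20 DAP, 26441 FPKM at 30 DAP, 16538 FPKM at 40 DAP, and 24374 FPKM at 50 DAP. The 4 markers of the basal transfer layer summed to a median of 1384 FPKM at 10 DAP and 0.513 FPKM at 40 DAP. The part of these shifts in the results below was not tested, and in whole kernels fewer cells of a type and less RNA per cell cannot be told apart.

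**Figure D1:**
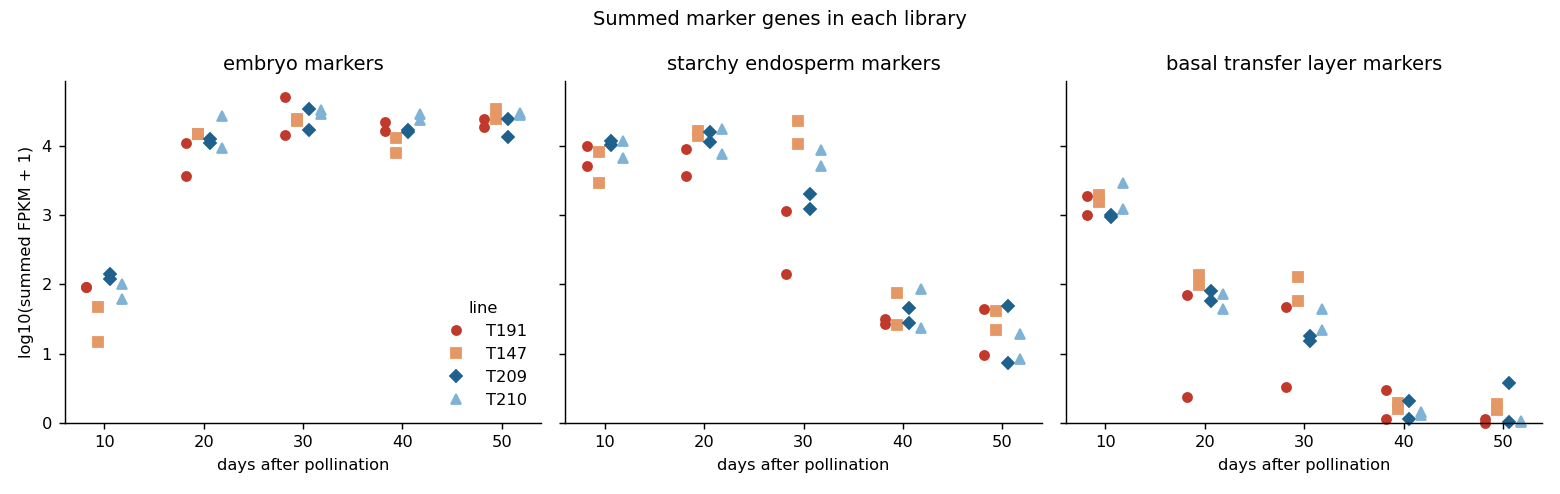
Summed FPKM of the embryo, starchy endosperm, and basal transfer layer marker genes in each of the 40 libraries, as log10(summed FPKM + 1) against days after pollination, with 2 points (ears) for each line. The embryo sum lies between 13.9 and 138 FPKM at 10 DAP and between 3681 and 26533 FPKM at 20 DAP, and the starchy endosperm sum lies between 22.6 and 83.2 FPKM at 40 DAP.

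Over the first step of development the 7 genes moved in both directions. Between 10 and 20 DAP, 4 of 7 rose (DGAT1-2 and the 3 oleosins), against 9.86% of all genes tested, and 2 of 7 fell (lec1 and GRMZM2G174834), against 25.7% of all genes. Only through T191 and T210 ears at 10 DAP was lec1 among the genes tested, so its count is no independent support for a fall. Between 20 and 30 DAP, 2 of 7 rose (ole1 and ole17), against 21.2% of all genes, and 2 of 7 fell (both WRI1 genes), against 15.7%. Between 30 and 40 DAP none rose, against 17.3% of all genes, and 1 fell (ole17), against 18.6%, with 2 of 7 at an unadjusted p under 0.05. Between 40 and 50 DAP 0 of 7 passed the test in limma, where 15.9% of all genes rose and 16.9% fell, and 1 of 7 had an unadjusted p under 0.05. The median change of the 7 genes was 0.56 at the first step and 0.18, -0.33, and -0.21 at the later ones, where the median of all genes tested was -0.05, 0.07, -0.01, and -0.02. These changes are averages over the 4 lines on the log2(FPKM + 1) scale, which understates the changes of genes near 0 FPKM, and a gene is called when its Benjamini-Hochberg adjusted p over 43394 genes is under 0.05.

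**Figure D2:**
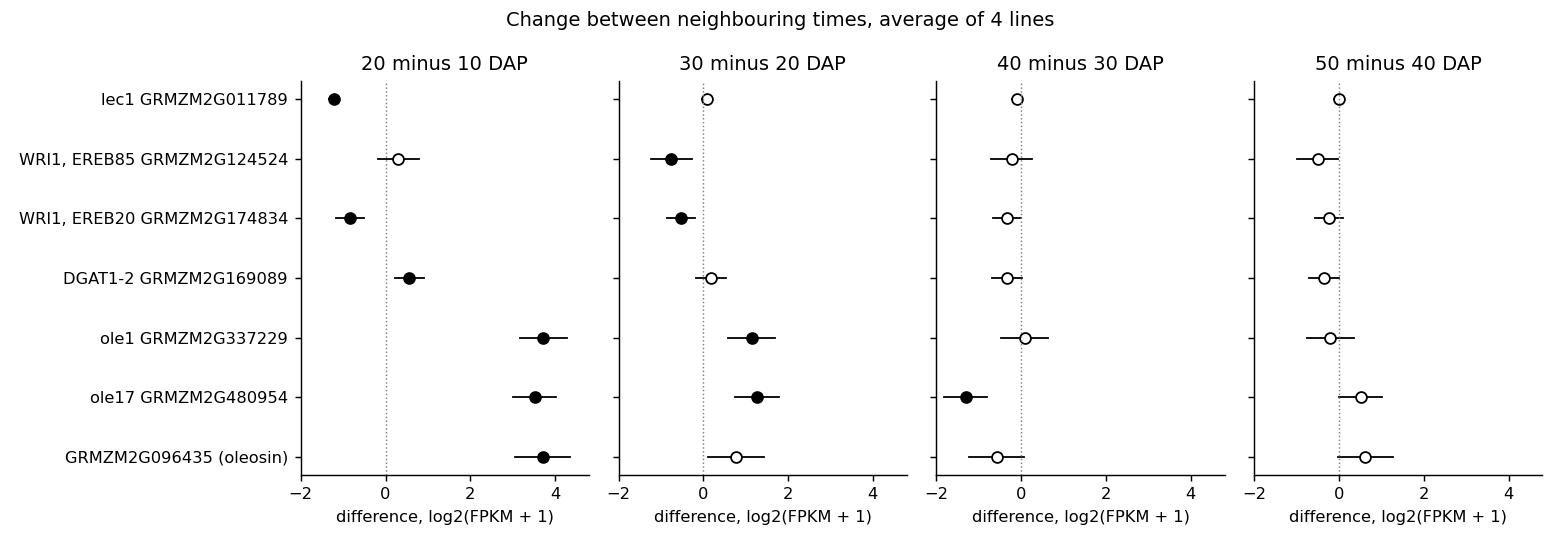
Change of each of the 7 genes between neighbouring times on the log2(FPKM + 1) scale, later minus earlier, averaged over 4 lines, with 95% confidence intervals from limma. Filled points have an adjusted p under 0.05. The oleosins lie between 3.52 and 3.73 at the first step, and no point is filled at the last one.

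Transcripts of lec1 were most abundant at 10 DAP in all 4 lines. The level at 10 DAP ranged from 0.773 to 2.71 FPKM over the 8 libraries, with a median of 1.27 FPKM. At 20 DAP the gene was listed at 0 in 6 of 8 libraries and reached 0.0303 FPKM at most, so that the ranges at 10 and 20 DAP did not overlap. It fell by 1.22 on the log2 scale (SE 0.06, adjusted p = 2.16e-14), in 4 of 4 lines. At 30 DAP it was listed above 0 in 7 of 8 libraries, at up to 0.209 FPKM, and at 50 DAP it was listed at 0 in all 8. The step from 20 to 30 DAP was 0.09 (SE 0.06) and was not called with a pseudocount of 1. With a pseudocount of 0.1 it was called, at 0.59 (adjusted p = 0.00814), and so was the step from 30 to 40 DAP, at -0.60 (adjusted p = 0.00684). All levels after 10 DAP were below the 1 FPKM set as the limit for the filter. At 10 DAP only the T191 and T210 ears reached that limit, so the test of the fall is no independent support for a high level there. Its SE comes from a spread shared by all 20 groups, most of them near 0 FPKM. The T191 ears at 10 DAP had an SD of 0.588 FPKM.

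The order of the lines in lec1 at 10 DAP was T191, T210, T209, and T147. Ears 1 and 2 of T191 had 2.71 and 1.88 FPKM, against 0.984 and 0.773 FPKM in T147. The T209 ears had 0.917 and 0.857 FPKM, against 1.67 and 1.55 FPKM in T210. Both ears of T191 were above both of T210, and both of T210 above those of the remaining lines, while T209 and T147 overlapped. At 30 DAP the T210 ears agreed at 0.209 and 0.208 FPKM, whereas the highest of the other 6 libraries had 0.0668 FPKM.

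Of the WRI1 genes, GRMZM2G124524 was the more abundant and the later to fall. Its median was 11.3 FPKM at 10 DAP, 16.1 FPKM at 20 DAP, 7.98 FPKM at 30 DAP, 6.48 FPKM at 40 DAP, and 4.63 FPKM at 50 DAP. Group means were highest at 20 DAP in T191, T147, and T210, and at 10 DAP in T209. The ears differed widely at 20 DAP. They had 19 and 4.12 FPKM in T191, 22.5 and 19.6 FPKM in T147, 8.87 and 6.86 FPKM in T209, and 39.9 and 13.2 FPKM in T210. Only in T147 did both ears at 20 DAP exceed both at 10 DAP, and the average step from 10 to 20 DAP was 0.30 (SE 0.23, adjusted p = 0.359). This step depended on single libraries at 20 DAP. It was 0.55 (adjusted p = 0.0388) without ear 2 of T191, 0.06 (adjusted p = 0.915) without ear 1 of T191, 0.49 (adjusted p = 0.0950) without ear 2 of T210, and 0.11 (adjusted p = 0.807) without ear 1 of T210.

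The fall of GRMZM2G124524 from 20 to 30 DAP was seen in the means of 4 of 4 lines and was -0.76 on average (SE 0.23, adjusted p = 0.0126). Leaving out single libraries at 20 DAP kept the direction but not always the call. The fall was -0.51 (adjusted p = 0.0536) without ear 1 of T191 and -0.57 (adjusted p = 0.0570) without ear 1 of T210. Without ear 2 of T191 its adjusted p was 0.000380, and without ear 2 of T210 it was -0.95 (adjusted p = 0.00169). Between 40 and 50 DAP the gene had a change of -0.50 that was not called with all libraries. This step holds no 20 DAP library, so leaving out an ear of T191 at 20 DAP changed only the shared spread. The gene went on to 1.51 and 1.93 FPKM in T209 at 50 DAP, the lowest group mean (1.72 ± 0.29 FPKM, SD, n = 2). Among its 20 group means in order, 15 of 19 neighbouring pairs had ears that overlapped. Sorting places similar groups side by side, which favours such overlap in any gene.

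GRMZM2G174834 was at its highest at 10 DAP in all 4 lines and declined from there. It had 2.27 and 3.0 FPKM in T191, 3.38 and 3.39 FPKM in T147, 4.04 and 3.25 FPKM in T209, and 3.42 and 2.46 FPKM in T210 at 10 DAP. The medians over 8 libraries were 3.32 FPKM at 10 DAP, 1.29 FPKM at 20 DAP, 0.504 FPKM at 30 DAP, 0.173 FPKM at 40 DAP, and 0.0739 FPKM at 50 DAP. The mean was lower in 4 of 4 lines at each of the first 2 steps, by -0.84 (SE 0.16, adjusted p = 0.000149) and -0.53 (SE 0.16, adjusted p = 0.0102). The steps to 40 and 50 DAP, -0.34 and -0.23, were called with the smaller pseudocount of 0.1, at -1.14 (adjusted p = 0.00700) and -0.89 (adjusted p = 0.0380). The first of these stayed at -0.34 without ear 1 or ear 2 of T210 at 20 DAP. It holds no 20 DAP library, so only the shared spread changed. The ratio of GRMZM2G124524 to GRMZM2G174834 in FPKM had medians of 3.56, 10.8, and 15.1 at the first 3 times, so the WRI1 transcripts came more and more from the one gene. By 40 DAP the ratio ran anywhere from 7.88 to 200, where GRMZM2G174834 was too low to give a firm value.

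DGAT1-2 stayed within a narrow range between 10 and 50 DAP. Its level over all 40 libraries ranged from 4.32 to 21.0 FPKM, with medians of 6.63 FPKM at 10 DAP, 11.2 FPKM at 20 DAP, 12.2 FPKM at 30 DAP, 8.79 FPKM at 40 DAP, and 6.97 FPKM at 50 DAP. The rise from 10 to 20 DAP was 0.56 (SE 0.17, adjusted p = 0.0109) and was seen in the means of 4 of 4 lines, in 3 of which both ears at 20 DAP were above both at 10 DAP. The time of the highest mean differed between the lines. It was 30 DAP in T191 and T209, 20 DAP in T147, and 40 DAP in T210, but the ears at 30 DAP were far apart, with 12.2 and 21.0 FPKM in T191, 10.9 and 12.1 FPKM in T147, 9.98 and 16.8 FPKM in T209, and 12.9 and 5.80 FPKM in T210. Of the other 19 groups, 6 overlapped the top group. The steps after 20 DAP were 0.18, -0.33, and -0.35, and none was called, although the step from 30 to 40 DAP was called after rescaling of the libraries, at -0.39 (adjusted p = 0.0368), and without ear 2 of T210 at 30 DAP, at -0.46 (adjusted p = 0.0392).

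**Figure D3:**
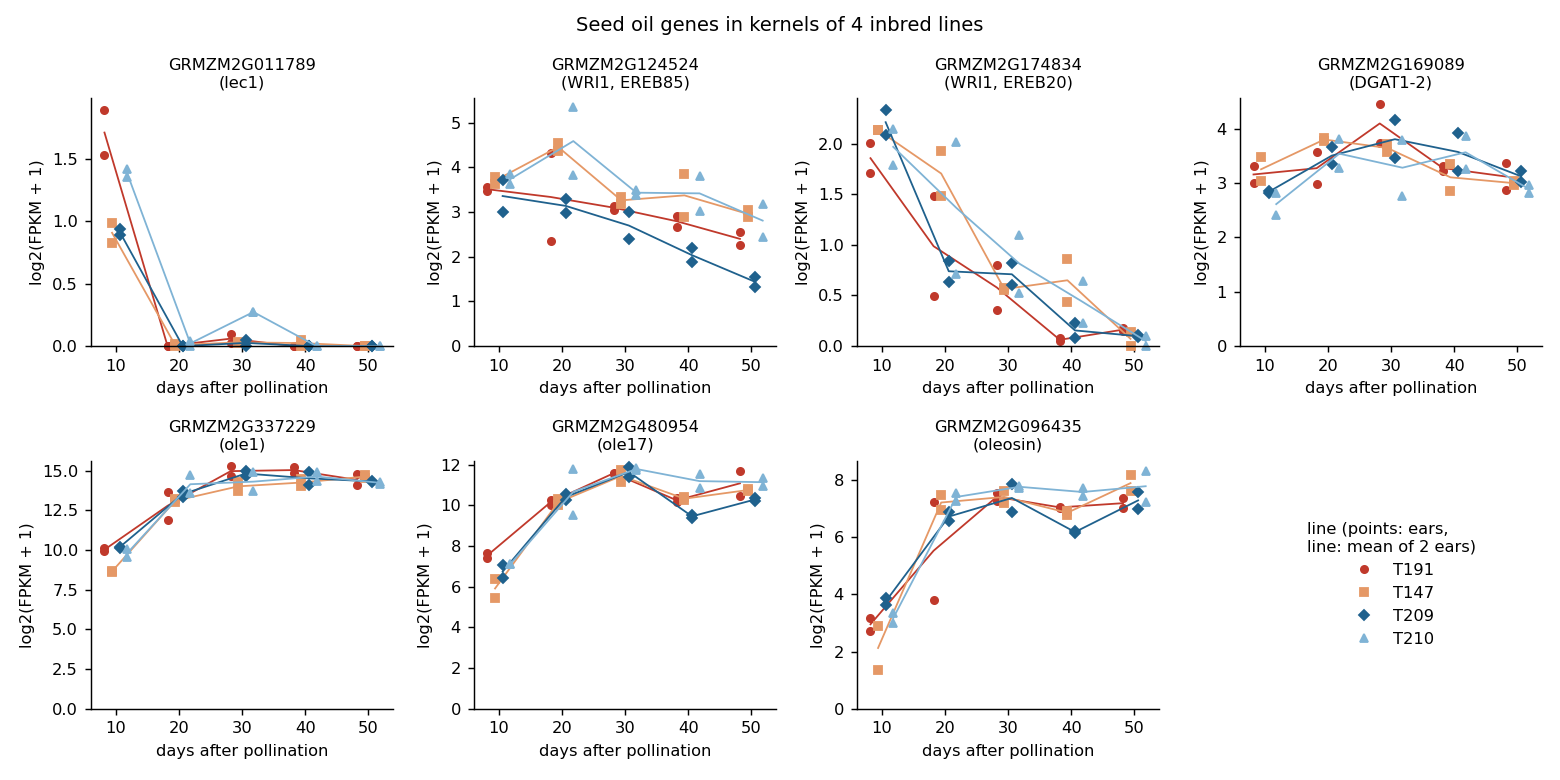
Level of each of the 7 genes as log2(FPKM + 1) against days after pollination, with a point for each ear and a line through the mean of 2 ears in each inbred line. lec1 lies between 0.773 and 2.71 FPKM at 10 DAP and below 0.21 FPKM later, while ole1 lies between 396 and 1186 FPKM at 10 DAP and at 13207 FPKM or more from 30 DAP on.

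The oleosin ole1 became one of the most abundant transcripts of the kernel. At 10 DAP the ears had 973 and 1115 FPKM in T191, 396 and 409 FPKM in T147, 1132 and 1186 FPKM in T209, and 753 and 1051 FPKM in T210. At 20 DAP they had 12941 and 3868 FPKM in T191, 9391 and 8243 FPKM in T147, 10245 and 13556 FPKM in T209, and 12214 and 26888 FPKM in T210. All 8 libraries at 20 DAP were thus above all 8 at 10 DAP, and the rise was 3.73 (SE 0.27, adjusted p = 5.44e-11). At 30 DAP the ears had 40318 and 25573 FPKM in T191, 13413 and 20350 FPKM in T147, 32026 and 26153 FPKM in T209, and 31197 and 13207 FPKM in T210. The further rise to 30 DAP was 1.14 (SE 0.27, adjusted p = 0.00163), and both ears at 30 DAP were above both at 20 DAP in 3 of 4 lines, the exception being T210. This call was lost when no filter on low values was used (adjusted p = 0.675). From 30 DAP on the median stayed between 20548 and 25989 FPKM, with steps of 0.08 and -0.21 that were not called. Its share of the summed FPKM of a library had a median of 0.179% at 10 DAP, 1.90% at 20 DAP, 4.41% at 30 DAP, 4.14% at 40 DAP, and 3.28% at 50 DAP, and its median rank among all rows was 54.5 at 10 DAP and 2 at 30, 40, and 50 DAP.

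Between 10 and 20 DAP the embryo markers were called higher, as the oleosins were, and no starchy endosperm marker was. Embryo markers rose in 5 of 5 genes over this step, with a median of 6.40, where 9.86% of all genes rose. Starchy endosperm markers were called higher in 0 of 8, with a median of -0.10, and 3 of 8 fell, where 25.7% of all genes fell. Their summed level had a higher median at 20 DAP (12654 FPKM) than at 10 DAP (8976 FPKM). The zein gene fl2 had a change of 1.92 that was not called in limma (adjusted p = 0.0565). Of the 8 libraries at 20 DAP, ear 2 of T191 had the lowest embryo sum and the lowest ole1 level. Ear 2 of T210 had the highest of both. Within each line at 20 DAP, the ear with the higher embryo sum also had more ole1. This order did not hold between all lines. The embryo sums were 14963 and 14698 FPKM in T147, against 10772 and 12596 FPKM in T209. Levels of ole1 were 9391 and 8243 FPKM in T147, against 10245 and 13556 FPKM in T209. At 30 DAP the ear with the higher embryo sum had less ole1 in T191 and T209, and more in T147 and T210. The part of embryo size or sampling in these values was not tested.

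In ole17 the rise to 30 DAP was followed by a fall. Its median was 134 FPKM at 10 DAP, 1224 FPKM at 20 DAP, 3266 FPKM at 30 DAP, 1257 FPKM at 40 DAP, and 1719 FPKM at 50 DAP. It rose by 3.52 (SE 0.25, adjusted p = 3.31e-11) and 1.27 (SE 0.25, adjusted p = 0.000245) at the first steps, in 4 of 4 lines each. At 30 DAP its ears had 2999 and 3114 FPKM in T191, 2260 and 3418 FPKM in T147, 3749 and 2709 FPKM in T209, and 3599 and 3452 FPKM in T210. At 40 DAP they had 1128 and 1300.3 FPKM in T191, 1353 and 1214 FPKM in T147, 742 and 665 FPKM in T209, and 1827 and 2978 FPKM in T210. Both ears at 40 DAP were below both at 30 DAP in 4 of 4 lines, and the fall was -1.31 (SE 0.25, adjusted p = 0.000182). The group mean was highest at 30 DAP in all 4 lines. The ratio of ole1 to ole17 accordingly had a median of 8.38 at 30 DAP and 22.3 at 40 DAP, with ranges of 3.83 to 13.4 and 10.2 to 41.5.

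GRMZM2G096435 was the least abundant oleosin of the 3 and had a similar time course at a lower level. It ranged from 1.54 to 13.7 FPKM at 10 DAP, with a median of 7.50 FPKM. The median was 136 FPKM at 20 DAP, 190.5 FPKM at 30 DAP, 125 FPKM at 40 DAP, and 175 FPKM at 50 DAP. In each of the 4 lines both ears at 20 DAP were above both at 10 DAP, and the rise was 3.71 (SE 0.32, adjusted p = 1.02e-09). The T191 ears at 20 DAP were 149 and 13.0 FPKM, and the value of the next step varied most when one of them was left out. The step from 20 to 30 DAP was 0.77 (SE 0.32, adjusted p = 0.0580), 0.34 (adjusted p = 0.238) without ear 2 of T191 at 20 DAP, and 1.2 (adjusted p = 0.000126) without ear 1. The means were lower at 40 than at 30 DAP in 4 of 4 lines, as for ole17, by -0.57 (SE 0.32, adjusted p = 0.166), and higher at 50 than at 40 DAP in 4 of 4 lines, by 0.62 (SE 0.32, adjusted p = 0.135). Neither step was called with all libraries. Both values stayed the same without either ear of T191 at 20 DAP. The 2 steps hold no 20 DAP library, so only the shared spread changed.

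Other oil body genes gave a background for the 3 oleosins. OLE18, the other abundant oleosin, had a median of 227 FPKM at 10 DAP, 1454 FPKM at 20 DAP, 3650 FPKM at 30 DAP, 4360 FPKM at 40 DAP, and 12597 FPKM at 50 DAP. It rose by 1.39 from 40 to 50 DAP (SE 0.22, adjusted p = 3.53e-05), with both ears at 50 DAP above both at 40 DAP in 4 of 4 lines, a step at which none of the 3 oleosins was called with all libraries, although the difference between these steps was not tested. The change in ole17 at this step, 0.51, was 0.66 without ear 2 of T191 at 50 DAP. It stayed at 0.51 without ear 1 or ear 2 of T210 at 20 DAP, which this step does not hold, and only the shared spread changed. The ratio of ole1 to OLE18 ranged from 2.78 to 11.4 among the 40 DAP libraries and was lower, 1.15 to 3.93, in those of 50 DAP. The further oleosin GRMZM2G333069 was listed at 0 in 4 of 8 libraries at 10 DAP and came up last, with medians of 6.93 FPKM at 20 DAP and 367 FPKM at 30 DAP and steps of 3.28 and 5.35 (SE 0.39 each, adjusted p = 2.93e-07 and 2.77e-10). At all 5 times ole1 had the highest median of these oleosins, followed by OLE18, ole17, and, in the last place of the 4, GRMZM2G096435. The list of lipid droplet proteins also held OBAP2A and OBAP2B, which are named for oil bodies. From 10 to 20 DAP 4 of its 4 genes rose, with a median of 3.30, where 9.86% of all genes rose. At the later steps 3, 0, and 1 of 4 rose, against 21.2, 17.3, and 15.9% of all genes. None of the list fell at these steps, against 15.7, 18.6, and 16.9% of all genes. OBAP2B rose by 6.05 and OBAP2A by 3.32 at the first step.

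**Figure D4:**
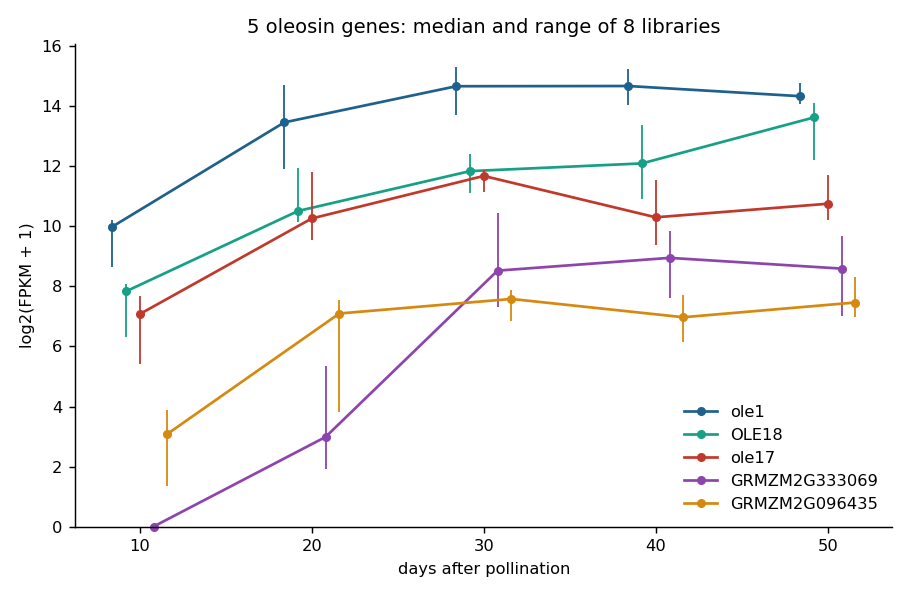
Levels of 5 oleosin genes as log2(FPKM + 1) against days after pollination, with the median (points) and the range (vertical bars) of the 8 libraries at each time. OLE18 has medians of 4360 FPKM at 40 DAP and 12597 FPKM at 50 DAP, while ole17 has its highest median, 3266 FPKM, at 30 DAP.

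Genes of fatty acid synthesis and desaturation moved in both directions at first, and those called later were lower. Of 9 such genes, 3 rose and 4 fell from 10 to 20 DAP, where 9.86% of all genes rose and 25.7% fell, with a median of -0.11. None rose at the later steps, where 4, 6, and 2 of 9 fell, against 15.7, 18.6, and 16.9% of all genes. The desaturase genes FAD2 (GRMZM2G056252) and fad2 (GRMZM2G064701), which introduce a double bond into oleate, rose by 0.48 (adjusted p = 0.0313) and 2.51 (adjusted p = 7.88e-06) at the first step. At the next step FAD2 fell by 1.47 and fad2 by 1.43 on the log2 scale (adjusted p = 3.30e-07 and 0.00383). The acyl carrier protein gene ACP, which carries the growing chain, fell by 1.37 at the first step and again by 2.09 at the 40 DAP step (adjusted p = 1.56e-05 and 4.59e-08). It averaged 96.3 FPKM at 10 DAP and 5.87 FPKM at 50 DAP.

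Among 6 genes listed as seed maturation regulators, 1 rose and 1 fell at the first step, with a median of 0.07, where 9.86% of all genes rose and 25.7% fell. The list was matched by symbol or synonym, without gene descriptions, so a role in maturation is not shown for each gene. At the later steps 0, 2, and 1 rose, against 21.2, 17.3, and 15.9% of all genes, and 2, 0, and 0 fell, against 15.7, 18.6, and 16.9%. The most abundant was vp1, a B3-domain factor of embryo maturation and abscisic acid response, which rose by 1.51 at the first step and by 1.18 at the 40 DAP step (adjusted p = 0.00140 and 0.0109). This gene is also counted among the 5 embryo markers. It averaged 6.97 FPKM at 10 DAP and 95.9 FPKM at 50 DAP, so it was most abundant when lec1 was listed at 0. CADR15 and CADR3, listed next by level, fell by 0.86 and 1.07 on the log2 scale from 20 to 30 DAP (adjusted p = 6.34e-05 and 2.13e-05). CADR3 then rose by 0.77 at the 40 DAP step and by 0.74 at the 50 DAP step (adjusted p = 0.000891 and 0.00153), while CADR15 had changes of 0.34 and 0.22 that were not called.

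Between T191 and T147, averaged over the 5 DAP, 1 of the 7 genes differed. It was lec1, and it was higher in T191, where 11.8% of all genes tested were higher and 10.6% lower. The difference was 0.16 (SE 0.05, adjusted p = 0.0278). It was not called with a pseudocount of 0.1 (adjusted p = 0.276), nor without ear 1 of T191 at 10 DAP (0.0750), ear 2 of T147 at 10 DAP (0.0635), or ear 1 of T191 at 30 DAP (0.0535). The difference changed with DAP (F-test, adjusted p = 0.00215, passed by 1 of 7 genes and by 15.7% of all genes), though not with the pseudocount of 0.1 (adjusted p = 0.135). At single times lec1 passed at 10 DAP, where 6.24% of all genes did, and not at 20, 30, 40, or 50 DAP, where 6.3, 12.5, 13.8, and 8.69% did. At 10 DAP the difference was 0.80 (95% confidence interval 0.56 to 1.04, adjusted p = 4.24e-05). lec1 passed the filter only through the T191 and T210 ears at 10 DAP, so its tests are no independent support for a high level there. From 20 DAP on it was near 0 FPKM in both lines, so the difference at 10 DAP alone gives the change with DAP. The model gives one spread to all groups of a gene, and 16 of the 20 groups lay near 0 FPKM, whereas at 10 DAP the SD of the ears was 0.588 FPKM in T191 and 0.149 FPKM in T147. The embryo marker sum at 10 DAP was 90.7 and 90.6 FPKM in T191, against 45.7 and 13.9 FPKM in T147, and its part in the difference was not tested.

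The other 6 genes were not called between T191 and T147, and their intervals allowed differences of some size. GRMZM2G124524 was lower in T191 at 5 of 5 DAP, with both ears below both of T147 at 4, but the average of -0.52 (95% confidence interval -0.96 to -0.09) had an adjusted p of 0.0751. It was -0.72 and called (adjusted p = 0.00447) without ear 1 of T191 at 20 DAP, and -0.33 (adjusted p = 0.220) without ear 2. It was -0.62 without ear 2 of T147 at 40 DAP. It stayed at -0.52 without ear 1 or ear 2 of T210 at 20 DAP, which belong to neither line, and only the shared spread changed. For ole1 both ears of T191 were above both of T147 at 10, 30, and 40 DAP, and the average was 0.52 (0.02 to 1.02, adjusted p = 0.129). It was 0.69 and called (adjusted p = 0.0281) without ear 2 of T191 at 20 DAP, and 0.34 (adjusted p = 0.284) without ear 1. DGAT1-2 had a difference of 0.02 (-0.29 to 0.34), GRMZM2G174834 of -0.30 (-0.59 to -0.0013), ole17 of 0.41 (-0.05 to 0.86), and GRMZM2G096435 of -0.27 (-0.85 to 0.31). Without ear 1 of T191 at 20 DAP, GRMZM2G174834 was called at -0.39 (adjusted p = 0.0382) and GRMZM2G096435 at -0.62 (adjusted p = 0.0205), and the difference in GRMZM2G096435 then changed with DAP (F-test, adjusted p = 0.000475). Without ear 2 neither was called, with -0.20 (adjusted p = 0.349) for GRMZM2G174834 and 0.07 (adjusted p = 0.851) for GRMZM2G096435. Tests at single times were made only for genes whose difference changed with DAP in all libraries. At 10 DAP ole17 had 171 and 202 FPKM in T191, against 83.5 and 41.9 FPKM in T147, ears that did not overlap. OLE18 was higher in T191, by 0.84 (0.43 to 1.25, adjusted p = 0.00296), with both ears above those of T147 at 4 of 5 DAP. In the same comparison 5 of 8 starchy endosperm markers were lower in T191, with a median of -0.89, where 10.6% of all genes were lower. Of the 5 embryo markers 1 was higher, against 11.8% of all genes, with a list median of 0.13. The marker called was rab17 (1.19, adjusted p = 0.00985), a dehydrin.

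Between T209 and T210, 3 of the 7 genes differed and all 3 were lower in T209, where 23.2% of all genes tested were higher and 16.9% lower. GRMZM2G124524 was lower at 5 of 5 DAP, with both ears of T209 below both of T210 at 4. At 40 DAP it had 2.66 and 3.59 FPKM in T209, against 7.16 and 13.0 FPKM in T210. At 50 DAP it had 1.51 and 1.93 FPKM in T209, against 8.09 and 4.41 FPKM in T210. The average difference was -1.06 (SE 0.21, adjusted p = 0.000231), and it was -0.91 (adjusted p = 0.00081) without the highest library, ear 1 of T210 at 20 DAP.

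The oleosin ole17 was also lower in T209 than in T210 at 5 of 5 DAP, by -0.67 on average (SE 0.22, adjusted p = 0.0178). The difference was -0.45 (adjusted p = 0.0496) without ear 2 of T210 at 20 DAP and -0.89 (adjusted p = 0.000332) without ear 1. Without ear 2 it also changed with DAP (F-test, adjusted p = 0.0275), which it did not with all libraries (0.365). Both ears of T209 were below both of T210 at 10, 40, and 50 DAP. At 50 DAP they had 1330.0 and 1170.3 FPKM in T209, against 2588 and 1956 FPKM in T210, and the ears of the lines overlapped at 20 and 30 DAP. In the same comparison 2 of 5 embryo markers were lower in T209, against 16.9% of all genes. They were glb1 (-1.12, adjusted p = 0.00636) and EMB5 (-0.91, adjusted p = 0.0327). The other markers, glb2 (0.69), rab17 (0.03), and vp1 (-0.03), were not called, and the median of the 5 was -0.03. The part of embryo amount in the ole17 difference was not tested. The remaining gene, lec1, differed by -0.15 (SE 0.05, adjusted p = 0.0263), from the values at 10 and 30 DAP given above. It reached the 1 FPKM of the filter in T210 at 10 DAP and never in T209, so its test is no independent support for a higher level in T210. At 10 DAP the embryo marker sum was 138 and 117 FPKM in T209, against 59.7 and 101 FPKM in T210. Its part in the lec1 difference was not tested.

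None of the other 4 genes was called between T209 and T210. The differences were 0.05 (95% confidence interval -0.45 to 0.55) for ole1, -0.14 (-0.44 to 0.15) for GRMZM2G174834, 0.19 (-0.12 to 0.50) for DGAT1-2, and -0.48 (-1.06 to 0.10) for GRMZM2G096435. GRMZM2G096435 was called from the 20 libraries of these lines alone (adjusted p = 0.0410). Its difference stayed at -0.48 without ear 1 or ear 2 of T191 at 20 DAP, which belong to neither line, and only the shared spread changed. OLE18 differed by 0.49 (adjusted p = 0.0502), opposite in sign to ole17. Of the 7 genes, 0 had a T209 to T210 difference that changed with DAP by limma's F-test, which 16.5% of all genes passed, and 1 of 7, lec1, had an unadjusted p under 0.05 and passed without the filter on low values (adjusted p = 0.00416). The list of fatty acid genes had 1 of 9 higher and 4 of 9 lower in T209, against 23.2% and 16.9% of all genes. Among the lower ones were fad2 (-1.51, adjusted p = 0.000812), FAD2 (-0.42, adjusted p = 0.0315), and ACP (-0.74, adjusted p = 0.00326).

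**Figure D5:**
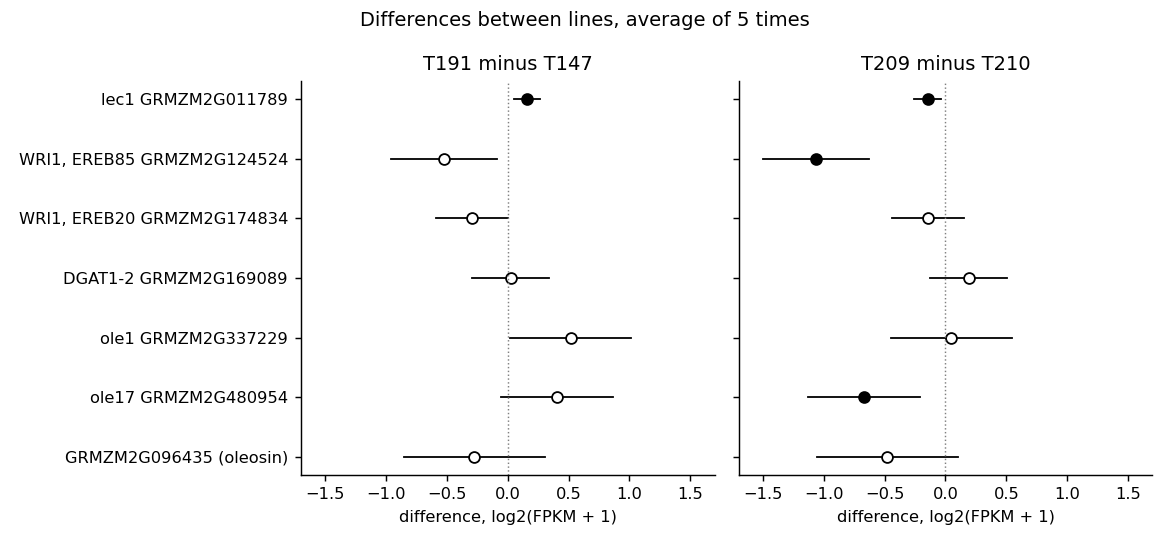
Differences of the 7 genes between lines, T191 minus T147 and T209 minus T210, averaged over 5 times on the log2(FPKM + 1) scale, with 95% confidence intervals from limma. Filled points have an adjusted p under 0.05, namely lec1 at 0.16 in the one pair and lec1, GRMZM2G124524, and ole17 at -0.15, -1.06, and -0.67 in the other.

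With 2 ears in a group, most neighbours in the order of group means could not be told apart by their ears. The ears of neighbouring groups overlapped in 15 of 19 pairs for lec1, 18 for GRMZM2G174834, 16 for DGAT1-2, 15 for ole1, 13 for ole17, and 16 for GRMZM2G096435. The highest group mean was 2.30 ± 0.59 FPKM for lec1 (T191, 10 DAP), which no other group overlapped. It was 26.6 ± 18.9 FPKM for GRMZM2G124524 (T210, 20 DAP) and 16.6 ± 6.21 FPKM for DGAT1-2 (T191, 30 DAP), which 4 and 6 groups overlapped. For the oleosins it was 33992 ± 6683 FPKM for ole1 (T191, 40 DAP), 3525 ± 105 FPKM for ole17 (T210, 30 DAP), and 239 ± 62 FPKM for GRMZM2G096435 (T147, 50 DAP), with 5, 2, and 5 groups overlapping (SD, n = 2 each). The lowest group mean of each of these oleosins was that of T147 at 10 DAP, with 403 ± 9.04 FPKM for ole1, 62.7 ± 29.4 FPKM for ole17, and 4.01 ± 3.49 FPKM for GRMZM2G096435. T147 at 10 DAP also had the lowest embryo marker sums, 45.7 and 13.9 FPKM.

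Across the 20 group means of log2(FPKM + 1), which all share the same libraries, the 3 oleosins followed each other closely, with Pearson r of 0.93 to 0.96. The r of lec1 was -0.88 with ole1 and 0.76 with GRMZM2G174834, while the r between the WRI1 genes was 0.68. DGAT1-2 had r of 0.42 to 0.50 with the oleosins and -0.17 with GRMZM2G174834. The genes with the most similar patterns, among 21158 genes with a mean of at least 1 FPKM, were GRMZM2G079962 (r = 0.97) and GRMZM2G355761 (0.96) for lec1, and GRMZM2G135277 (0.90) and the bZIP factor gene bZIP103 (GRMZM2G092609, 0.89) for GRMZM2G124524. For GRMZM2G174834 they were dla1 (GRMZM2G161969, 0.97) and GRMZM2G157310 (0.97). DGAT1-2 had no gene above 0.78, its closest being GRMZM2G392320 and GRMZM2G039325 (0.78 each). The embryo storage globulin gene glb1 was closest to both ole17 (0.97) and GRMZM2G096435 (0.97), followed by GRMZM2G042692 (0.97) and GRMZM2G704475 (0.97). For ole1 the closest were GRMZM2G122357 and the ferredoxin gene FDX1 (GRMZM2G122337, 0.99 each), whose values in the table are identical and count as 1 measurement.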

How the data were processed

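Total RNA of maize kernels (4 inbred lines, 5 times, 2 ears) was sequenced with TruSeq libraries. The authors deposited one table of FPKM, calculated from gene length and read counts; submitters' processing notes name Bowtie 0.12.2, Cuffdiff, and B73 RefGen_v3 with no roles. FPKM values are not counts, so no count test was used and no counting interval can be given. Assembled loci stand beside named genes in the table and could take reads from them. Line, time, and ear came from the sample labels, and no column was left unmapped.

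Values were analysed as log2(FPKM + 1) in limma 3.58.1 (R 4.3.3; lmFit, contrasts.fit, eBayes with trend), with one mean for each of 20 groups, over 43394 genes, those reaching 1 FPKM in 2 or more libraries. Adjusted p are Benjamini-Hochberg values. All 7 genes passed this filter, lec1 only through the T191 and T210 ears at 10 DAP, where it was highest. On simulated data with normal spread, 72% of genes changed by 1 and 93% changed by 2 on the log2 scale were recovered for 20 against 10 DAP. For T191 against T147 it was 78% and 97%. Of the calls, 5.71% and 1.13% were of genes left unchanged. Only genes with a mean of at least 1 FPKM were changed, so these shares do not cover lec1, which was at 0 in 22 of 40 libraries. Alternatives were a pseudocount of 0.1, no filter, libraries rescaled by median ratio, a replicate block, the libraries of a pair alone, and each library left out.

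The 7 genes and the lists were chosen with earlier results of these data known. Named beside them were, for each, the 2 genes most similar by Pearson r over group means, the 3 most abundant of each list, and oleosins of the same family. List genes were found by RefSeq symbol or synonym (assembly Zm-B73-REFERENCE-NAM-5.0), because the gene table used has no descriptions; 1 endosperm and 1 transfer layer marker were not matched. That assembly differs from the build of the files, so no position is given. EMB5 was named after its values were seen.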

Additional observations from a re-analysis of the deposited data

Results flagged for a closer look

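The difference in lec1 (GRMZM2G011789) between T191 and T147 changed with time, with an adjusted p of 0.00215 in limma's F-test. It stood at 0.80 at 10 DAP on the log2(FPKM + 1) scale, from 2.71 and 1.88 FPKM in T191, against 0.984 and 0.773 FPKM in T147. At the later times both lines were below 0.07 FPKM. There the difference on this scale is held near 0 whatever the ratio of the lines, so a difference at 10 DAP alone lets the F-test pass. With a pseudocount of 0.1 the F-test did not pass (adjusted p = 0.135).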

How the results depend on the processing

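With a pseudocount of 0.1 the number of the 7 genes called was 3 for 40 against 30 DAP, 1 for 50 against 40 DAP, 0 for T191 against T147, and 0 for T191 against T147 by DAP. Without the filter 1 gene was called for T209 against T210 by DAP, and after rescaling by median ratio 2 were called for 40 against 30 DAP. Rescaling turned the T209 minus T210 difference of GRMZM2G337229 to -0.0527. Leaving out each library in turn (40 fits) gave 6 to 7 genes for 20 against 10 DAP, 3 to 5 for 30 against 20 DAP, 1 to 2 for 40 against 30 DAP, 0 to 2 for 50 against 40 DAP, 0 to 4 for T191 against T147, 3 to 4 for T209 against T210, 1 to 2 for T191 against T147 by DAP, and 0 to 1 for T209 against T210 by DAP. The sign of uncalled differences turned in some of these fits, with ranges of -0.0494 to 0.0973 for GRMZM2G169089 and -0.616 to 0.0687 for GRMZM2G096435 in T191 against T147, and for GRMZM2G337229 of -0.0743 to 0.236 for 40 against 30 DAP and -0.0748 to 0.173 in T209 against T210. Of 16 calls of single genes, 14 held in all 40 fits. With a replicate block the count of the 7 genes called was unchanged in every comparison (6 for 20 against 10 DAP), and over all genes 15924 were called for 30 against 20 DAP, where 15999 were called without it. The labels do not say whether ear numbers are tied between groups. The deviations of ear 1 had a median correlation of 0.01 over 190 pairs of groups. The range was -0.370 to 0.466, with 35 pairs above 0.1. The cause of these changes was not tested. The depth in reads is not known, which limits lec1 after 10 DAP and GRMZM2G174834 after 30 DAP most.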
